A study of Mus musculus with 4 samples.

Results

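The 3 basal keratins Krt5, Krt14 and Krt17 and the 4 luminal keratins Krt7, Krt8, Krt18 and Krt19 were followed through single-cell RNA libraries of mouse mammary epithelium. They were chosen by name and are 7 of the 31781 genes counted. The 4 libraries, 1 per group, were PKA tumor (2638 annotated cells), WT tumor (5181), PKA hyperplasia (3818) and WT hyperplasia (3808). All mice carried MMTV-PyMT, in which the mouse mammary tumor virus promoter drives polyoma middle T antigen chiefly in mammary epithelium, and none was treated. PKA mice had the genotype "PKA activated", that is an activated cAMP-dependent protein kinase, by means that the labels do not give, and WT mice the genotype "wild type". Hyperplastic glands came from animals of 8 to 9 weeks. Tumor-bearing animals are put at 16 to 20 weeks by the sample labels but at 22 weeks by the series design, and the number of animals behind a library is not stated. Glands and tumors were processed from the same mouse according to the design text, but no label ties libraries to a mouse.

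Keratins are intermediate filament proteins that assemble only as pairs of a type I and a type II chain. In the mammary gland the type II chain Krt5 pairs with the type I chain Krt14 in the outer basal, or myoepithelial, layer, and Krt8 pairs with Krt18 in the inner luminal layer. Krt17, a type I chain, is known for its induction in wounded and stressed epithelium, and Krt7 (type II) and Krt19 (type I) belong to simple, luminal epithelia. Cells with chains of both layers occur in the embryonic gland and in tumors.

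On GRCm38 all 7 are protein-coding genes (GENCODE vM21). Krt14 lies at chr11:100203162-100207548, Krt17 at chr11:100256217-100261029 and Krt19 at chr11:100140810-100148665, all on the minus strand. Krt5 lies at chr15:101707070-101712898 and Krt8 at chr15:101996698-102004482 on the minus strand, and Krt7 at chr15:101411043-101430313 and Krt18 at chr15:102028180-102032027 on the plus strand. Krt8 and Krt18 are neighbours that face away from each other, with 23697 bases between the genes.

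The promoters are shown for Krt5, the basal keratin that was nearly lost from tumors, and for Krt8 and Krt18, the pair detected in almost every cell. Each runs from 250 bases before to 50 bases after the RefSeq start (GRCm38.p6), which lies 7 bases from the GENCODE start for Krt5, 140 for Krt8 and 36 for Krt18. Krt5 is chr15:101712856-101713155 on the minus strand, Krt8 is chr15:102004293-102004592 on the minus strand and Krt18 is chr15:102027966-102028265 on the plus strand. Capitals mark matches, on either strand, to a TATA box (TATAAA), an SP1 box, an AP-1 site or an AP-2 site; the letters searched for the other 3 are given after the sequences.
Krt5: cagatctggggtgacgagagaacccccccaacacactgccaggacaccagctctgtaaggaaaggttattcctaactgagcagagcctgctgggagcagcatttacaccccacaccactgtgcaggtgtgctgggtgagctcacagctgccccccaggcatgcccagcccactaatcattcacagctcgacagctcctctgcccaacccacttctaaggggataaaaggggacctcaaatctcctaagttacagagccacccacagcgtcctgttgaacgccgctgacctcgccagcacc
Krt8: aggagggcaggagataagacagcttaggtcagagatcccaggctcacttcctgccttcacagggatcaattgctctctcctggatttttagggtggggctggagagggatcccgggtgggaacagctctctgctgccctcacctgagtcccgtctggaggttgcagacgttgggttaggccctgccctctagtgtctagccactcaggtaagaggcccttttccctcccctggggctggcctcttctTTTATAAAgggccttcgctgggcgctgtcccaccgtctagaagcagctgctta
Krt18: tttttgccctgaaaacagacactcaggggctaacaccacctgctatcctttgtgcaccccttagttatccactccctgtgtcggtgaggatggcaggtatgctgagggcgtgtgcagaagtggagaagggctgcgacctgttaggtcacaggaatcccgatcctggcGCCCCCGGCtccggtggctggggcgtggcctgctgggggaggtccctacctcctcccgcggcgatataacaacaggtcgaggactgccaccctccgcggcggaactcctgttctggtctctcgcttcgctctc
The Krt8 window held TATAAA, overlapping its own reverse complement, with the first match beginning only 3 bases before the RefSeq start. Whether these letters work as a TATA box was not tested. The Krt18 window held 1 match to the AP-2 letters, beginning 83 bases before the start, and the Krt5 window held no match to any of the 4. Of 32851 promoters of this length, 13.6% held the TATA letters. The SP1 letters GGGCGG were held by 35.7% of them. The AP-1 letters TGANTCA were held by 7.81% of them. The AP-2 letters GCCNNNGGC were held by 16.6% of them.

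Counts are unique molecular identifiers (UMIs), each standing for 1 captured transcript 3' end, so they do not scale with transcript length, and levels are given as CPM, the UMIs of a gene scaled to one common total, over the summed annotated cells. The annotated cells held 16758734 UMIs in PKA tumor, 24499374 in WT tumor, 10648097 in PKA hyperplasia and 10797950 in WT hyperplasia, and any library pair shared 16 to 24 barcodes. The authors' classes rest on markers that include Krt5 and Krt14 (Basal) and Krt14 and Krt8 (Lumino-Basal), so levels of these genes by class are a description. With 1 library per group there is no replicate check and no test. Intervals are 95% intervals of counting error only and compare libraries rather than conditions. Glands and tumors were dissociated differently, the sort gate is not described, and fewer cells of a class cannot be told apart from less RNA per cell in sums over a library.

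Krt5, the type II basal chain, was a gene of the Basal class of hyperplastic glands and was nearly missing from tumors. It stood at 0.36 CPM in PKA tumor (6 UMIs), 3.71 CPM in WT tumor (91 UMIs), 27.4 CPM in PKA hyperplasia (292 UMIs) and 18.0 CPM in WT hyperplasia (194 UMIs). The Basal class, which made up 5.97% of PKA and 5.25% of WT hyperplasia cells and has no cells in the tumors, held 93.5% of the Krt5 UMIs of PKA hyperplasia and 96.4% of those of WT hyperplasia. Within it the Krt5 level was 532 CPM in PKA, against 465 CPM in WT. Outside it Krt5 was at 2.60 CPM or below in each class and library but 1. That exception was the Lumino-Basal class of WT tumor, with 13.0 CPM and 87 of the 91 UMIs of its library. The Lumino-Basal class of PKA tumor had 0 UMIs, which allows up to 7.32 CPM if each UMI is counted as independent. The 87 UMIs were not spread in that way. They lay in 12 of 1198 Lumino-Basal cells of WT tumor (0.519 to 1.74%), and a single cell held 19 of them. In PKA tumor 0 of 66 such cells held Krt5, with an interval up to 5.44% that covers the WT one. The 66 cells are therefore too few to show whether the 2 classes differed in Krt5.

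Krt14, the type I partner of Krt5, stayed in the tumors without it. Its level was 218 CPM in PKA tumor, 411 CPM in WT tumor, 314 CPM in PKA hyperplasia and 188 CPM in WT hyperplasia. WT tumor was highest and WT hyperplasia lowest, so PKA and WT changed places between the stages. Krt5 made up 0.16% (0.06 to 0.36) of the Krt5 and Krt14 UMIs of PKA tumor and 0.90% (0.72 to 1.10) of those of WT tumor, against 8.04% in PKA hyperplasia and 8.70% in WT hyperplasia. In the Basal class itself that share was 11.2% in PKA and 13.5% in WT. In Luminal Progenitor 1 cells it was low at both stages. It was 1.44% (0.82 to 2.33) in PKA and 0.52% (0.14 to 1.33) in WT hyperplasia, and 0.15% in PKA and 0.03% in WT tumor. Krt14 with little Krt5 was therefore not confined to tumors.

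The cells that carried Krt14 differed among the libraries. In hyperplasia the Basal class held 64.9% of Krt14 UMIs in PKA and 58.7% in WT, and most of the remainder lay in Luminal Progenitor 1 cells, the most frequent class. In PKA tumor 89.7% of Krt14 UMIs lay in Luminal Progenitor 1 cells and 8.17% in Lumino-Basal cells. In WT tumor the Lumino-Basal class held 62.9% and Luminal Progenitor 1 cells 34.1%. Luminal Progenitor 1 cells made up 81.8% of PKA and 45.2% of WT tumor cells, and Lumino-Basal cells 66 of 2638 PKA and 1198 of 5181 WT tumor cells.

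**Figure D1:**
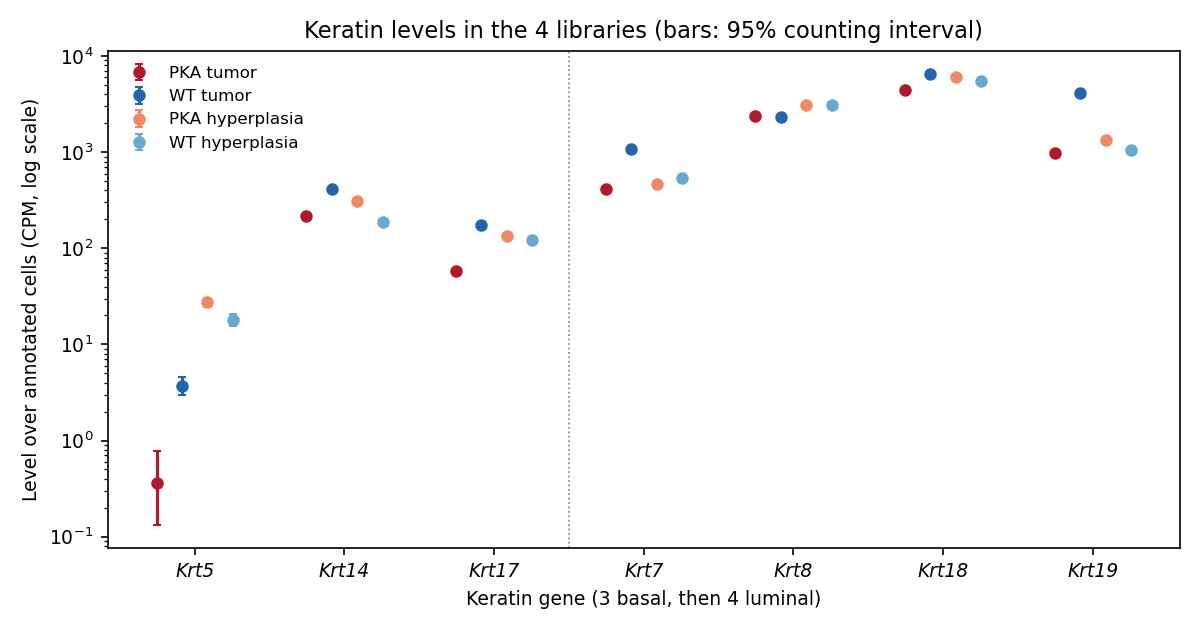
Level of each keratin in each library (CPM over annotated cells, log axis; points are the libraries, bars the 95% counting interval). Krt5 lies at 0.36 and 3.71 CPM in PKA and WT tumor, below both hyperplasia libraries, whereas Krt14 and Krt17 do not drop with it in WT tumor.

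**Figure D2:**
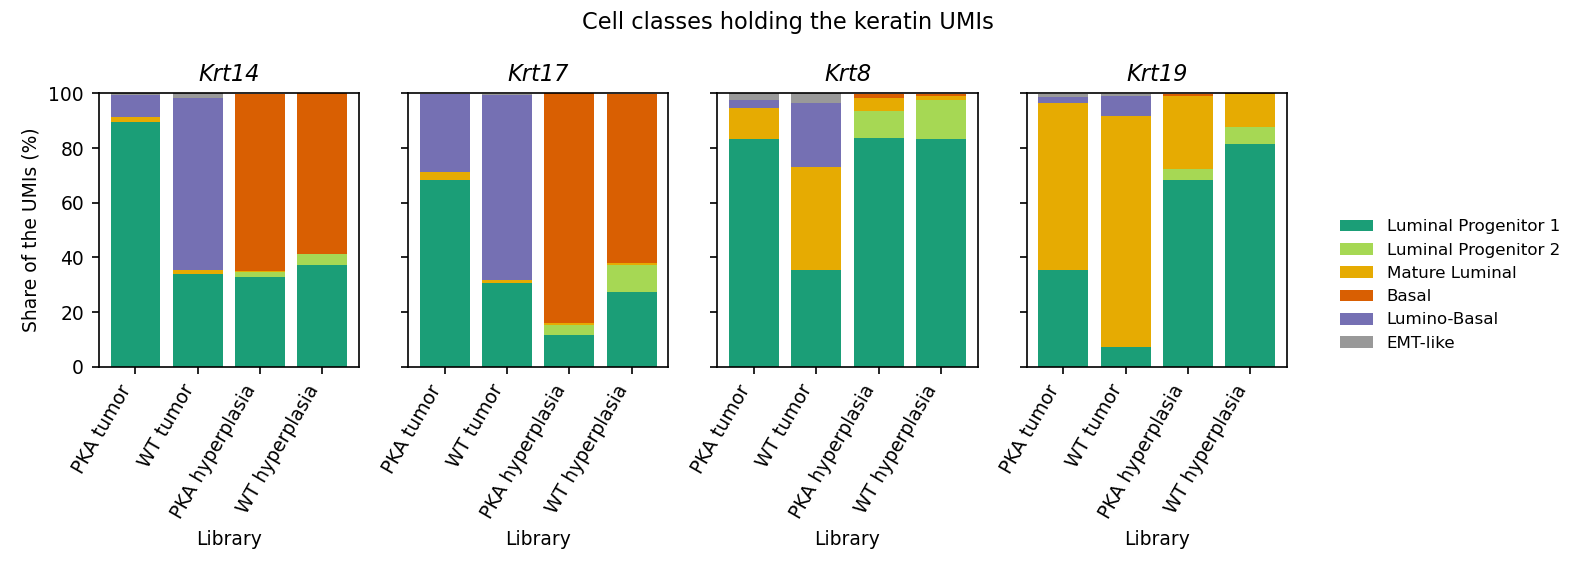
Share of the UMIs of Krt14, Krt17, Krt8 and Krt19 (percent of the gene's UMIs in the library) held by each cell class, with 1 bar per library. Most Krt14 lies in the Basal class in hyperplasia, in Luminal Progenitor 1 in PKA tumor and in Lumino-Basal in WT tumor.

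At the level of the class, Krt14 in Lumino-Basal cells measured 727 CPM in PKA, against 948 CPM in WT tumor, below the 4226 and 2972 CPM of the Basal class in PKA and WT hyperplasia. In Luminal Progenitor 1 cells the PKA tumor value was 236 CPM and the PKA hyperplasia value 136 CPM (log2 ratio 0.80, 0.70 to 0.90), while the WT tumor value was 327 CPM and the WT hyperplasia value 96.9 CPM (1.75, 1.64 to 1.87). Krt14 was therefore higher in the tumor Luminal Progenitor 1 cells of both genotypes, although over all cells it was lower in PKA tumor than in PKA hyperplasia. Krt14 UMIs were uneven among cells. The median cell held 6 of them in the Basal class of PKA hyperplasia, 2 in that of WT hyperplasia and 1 in the Lumino-Basal class of PKA tumor, but 0 in the Lumino-Basal class of WT tumor, where the highest single cell held 267.

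Krt17, which the series design does not list as a class marker, broadly followed Krt14 over the classes but not in every comparison of genotypes. It stood at 58.5 CPM in PKA tumor, 174 CPM in WT tumor, 135 CPM in PKA hyperplasia and 122 CPM in WT hyperplasia, so PKA tumor was the low library and the other 3 lay closer together. It was highest in the Basal class (2364 CPM in PKA, against 2027 CPM in WT hyperplasia) and next in the Lumino-Basal class (679 CPM in PKA, against 431 CPM in WT tumor; 0.65, 0.47 to 0.83). In Luminal Progenitor 1 cells the order of the genotypes was the other way, with 48.5 CPM in PKA against 124 CPM in WT tumor (-1.35, -1.49 to -1.22), and 21.0 CPM in PKA against 46.0 CPM in WT hyperplasia (-1.13, -1.40 to -0.86). Krt17 was thus lower by 2 or more fold in the PKA Luminal Progenitor 1 cells at both stages, beside 5.54% of 18056 genes in tumor and 4.77% of 15040 in hyperplasia. The PKA over WT ratio of Krt14 had the opposite sign in tumor Lumino-Basal cells (-0.38, -0.56 to -0.21). It did so too in hyperplasia Luminal Progenitor 1 cells (0.49, 0.36 to 0.63). Krt14, Krt16 and Krt17 share part of the ends that are counted. Of the 50-base stretches in the last 500 bases of their transcripts, 9.53% of those of Krt14 and of Krt17 also occur in another of the 3, so their counts are uncertain by what the authors' counting did with such reads.

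Krt8, the type II luminal chain, varied least of the 7 among libraries. It stood at 2403 CPM in PKA tumor, 2333 CPM in WT tumor, 3083 CPM in PKA hyperplasia and 3103 CPM in WT hyperplasia, with the PKA and WT values close together at each stage. Its partner Krt18 stood at 4394 CPM in PKA tumor, 6580 CPM in WT tumor, 6034 CPM in PKA hyperplasia and 5478 CPM in WT hyperplasia. Krt8 made up 35.4% of the Krt8 and Krt18 UMIs in PKA tumor, 26.2% in WT tumor, 33.8% in PKA hyperplasia and 36.2% in WT hyperplasia, so that WT tumor stood apart from the other 3. PKA tumor was also above WT tumor in Luminal Progenitor 1 (36.6% and 25.8%), Lumino-Basal (30.8% and 26.3%) and EMT-like cells (30.5% and 18.7%), and by less in Mature Luminal cells (30.0% and 27.5%). The pseudogene Krt8-ps, at 1 to 13 UMIs per library, held few counts beside Krt8.

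Krt19 and Krt7, neither of them among the listed class markers, were led by the Mature Luminal class, the cells with hormone receptor genes. Krt19 stood at 989 CPM in PKA tumor, 4092 CPM in WT tumor, 1325 CPM in PKA hyperplasia and 1048 CPM in WT hyperplasia. In Mature Luminal cells it reached 7087 CPM in PKA tumor, 17337 CPM in WT tumor, 4938 CPM in PKA hyperplasia and 3548 CPM in WT hyperplasia. Krt19 of Mature Luminal cells was 2.45-fold lower in PKA than in WT tumor (-1.29, -1.32 to -1.26), beside 6.22% of 14131 genes that were 2 or more fold lower. WT tumor was far above the other 3 libraries, and its Mature Luminal cells, 16.8% of the library, held 84.4% of its Krt19 UMIs. In PKA tumor these cells made up 6.71% of the library and held 61.3% of Krt19. In Luminal Progenitor 1 cells Krt19 was instead lower in the tumors. PKA tumor had 422 CPM and PKA hyperplasia 1196 CPM there (-1.50, -1.55 to -1.45), and WT tumor had 695 CPM and WT hyperplasia 1174 CPM (-0.76, -0.80 to -0.71).

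Krt7 stood at 412 CPM in PKA tumor, 1074 CPM in WT tumor, 465 CPM in PKA hyperplasia and 537 CPM in WT hyperplasia, again with WT tumor alone above the rest. Its level in the tumors was highest in Mature Luminal cells (1613 CPM in PKA, against 2514 CPM in WT) and next in Lumino-Basal cells (1567 CPM in PKA, against 1688 CPM in WT). Of the Krt7 UMIs of PKA tumor, the many Luminal Progenitor 1 cells nevertheless held 55.6%, Mature Luminal cells 33.4% and Lumino-Basal cells 9.29%. Of those of WT tumor, Luminal Progenitor 1 cells held 9.35%, Mature Luminal cells 46.6% and Lumino-Basal cells 42.8%. In Luminal Progenitor 1 cells Krt7 was lower in tumors, with 278 CPM in PKA tumor and 482 CPM in PKA hyperplasia, and with 234 CPM in WT tumor and 632 CPM in WT hyperplasia. The Lumino-Basal class thus combined Krt14 and Krt17 with the highest Krt7 outside the Mature Luminal class.

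**Figure D3:**
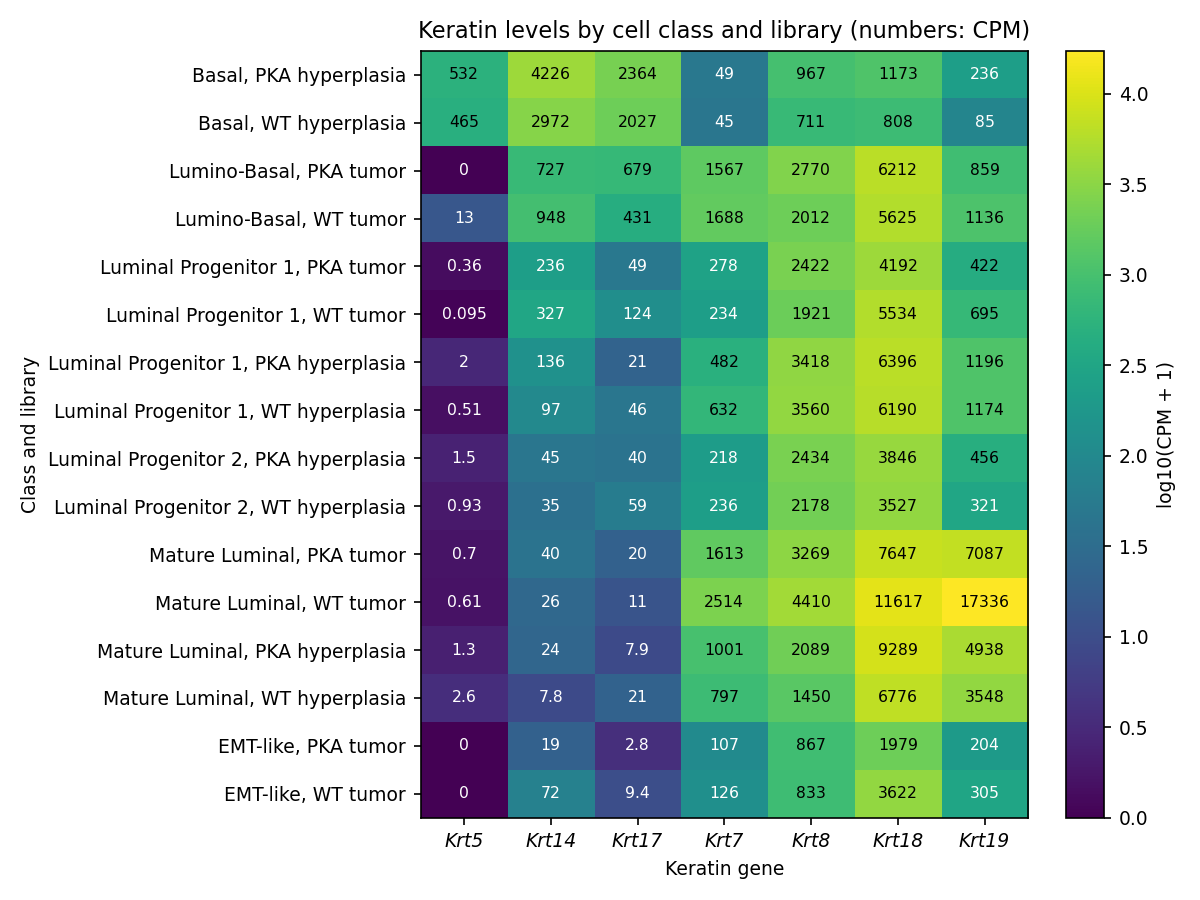
Level of each keratin (columns; number and colour give CPM, colour as log10 of CPM + 1) in every cell class and library (rows). Krt5 is above 100 CPM in the Basal class alone, Krt19 peaks at 17337 CPM in Mature Luminal cells of WT tumor, and the EMT-like rows are low for basal and luminal keratins alike.

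The class that the authors called EMT-like had the lowest luminal keratin sums of the tumor classes. Its 4 listed markers, none of them a keratin, go against that name: Trim29 and Cldn6 were at 0 in it in both tumors, and with Vim and Sox4 the list summed to 365 CPM in PKA, against 255 CPM in WT, the lowest of the 4 classes of each tumor. Luminal Progenitor markers (3 of 3 detected) were highest there, with 7457 CPM in PKA, against 2538 CPM in WT tumor. The authors' name is kept here only as a label. The 4 luminal keratins together made 3157 CPM in PKA, with 4885 CPM in WT EMT-like cells, against 7315 and 8384 CPM in Luminal Progenitor 1 cells of PKA and WT tumor. Krt14 gave 19.4 CPM in the PKA, against 72.4 CPM in the WT, EMT-like cells (-1.90, -2.63 to -1.24), below the Luminal Progenitor 1 cells of the same tumors, and Krt5 had 0 UMIs in both. Nearly all EMT-like cells still held a luminal keratin UMI, 98.2% in PKA and 99.8% in WT tumor with each cell thinned to 2000 UMIs.

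The Basal class was not free of luminal keratins. Krt8 reached 967 CPM there in PKA, against 711 CPM in WT hyperplasia. Krt18 reached 1173 CPM in PKA, against 808 CPM in WT, and Krt19 236 CPM in PKA, against 84.6 CPM in WT. Barcodes with UMIs of at least 3 immune genes, 10 in PKA and 13 in WT hyperplasia, gave higher values. Krt8 was at 1498 and 1961 CPM in them, Krt18 at 2521 and 4059 CPM and Krt19 at 365 and 757 CPM. How much of the luminal keratin RNA in the Basal class was made by its own cells was not tested. Krt19 was 2.79-fold higher in the PKA Basal cells (1.48, 0.92 to 2.07), where 6.38% of 8309 genes were 2 or more fold higher. Fibroblast markers, with 6 of 6 genes detected in both, summed to 807 CPM in the PKA, against 1639 CPM in the WT, Basal cells. Immune markers summed to 11.7 CPM in PKA Basal cells, with 4 of 9 genes detected and Ptprc, Lyz2, Tyrobp, Cd3e and Cd79a at 0, and to 293 CPM in WT Basal cells, with 6 of 9 detected and Ptprc, Cd3e and Cd79a at 0. Luminal markers were higher in the PKA Basal cells, as Krt19 was. Luminal Progenitor markers (3 of 3 detected in both) summed to 754 CPM in the PKA, against 219 CPM in the WT, Basal cells. Mature Luminal markers (3 of 5 detected in both, Pgr and Foxa1 at 0) summed to 79.9 CPM in the PKA, against 32.3 CPM in the WT, Basal cells. The part of these other cells in the Basal class values was not tested.

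PKA and WT tumor, which the design sets against each other at the later stage, differed in most of the keratins. Of the 7 keratins, 4 were 2 or more fold lower in PKA tumor (Krt5, Krt17, Krt7 and Krt19) and none was that much higher; over all 20146 genes tested 7.92% were that much lower and 9.52% that much higher. The folds were 10.4 for Krt5, 2.97 for Krt17, 2.60 for Krt7 and 4.14 for Krt19. Without thinning, Krt5 was found in 6 of 2638 PKA tumor cells (0.227%, 0.084 to 0.494). In WT tumor it was found in 16 of 5181 cells (0.309%, 0.177 to 0.501). These intervals overlapped, so the Krt5 fold rests on the UMIs of few cells. Krt14 was 1.89-fold lower (-0.92, -0.97 to -0.86), Krt18 1.50-fold lower (-0.58, -0.60 to -0.57), and Krt8 differed by 1.03-fold (0.04, 0.02 to 0.06). The 3 basal keratins together summed to 276 CPM in PKA, against 588 CPM in WT tumor (-1.09, -1.14 to -1.04), and the 4 luminal keratins to 8197 CPM in PKA, against 14078 CPM in WT tumor (-0.78, -0.79 to -0.77).

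The gap was narrower once both tumors were given the same class shares, a setting chosen after seeing the data. The log2 ratio was then -0.33 for the basal sum and -0.40 for the luminal sum, -0.43 for Krt14, -0.10 for Krt17 and -0.25 for Krt7. For Krt19 it was -1.13, against -2.05 over all cells, and for Krt5 -2.68, against -3.38 over all cells. Within the Lumino-Basal class the basal sums of 1406 CPM in PKA, against 1393 CPM in WT tumor, lay close together (0.01, -0.11 to 0.14), although PKA tumor had 66 of these cells and WT tumor 1198. All 9 immune markers were at 0 in the Lumino-Basal cells of PKA tumor, and 7 of 9 gave 26.7 CPM in those of WT tumor, with Cd3e and Cd79a at 0. Fibroblast markers there, with 6 of 6 detected in both, summed to 737 CPM in PKA, against 117 CPM in WT, and their part was not tested.

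Some WT tumor cells carried epidermal genes. Cells with UMIs of at least 2 of 10 squamous genes (such as Klk6, Asprv1 and Sprr1a) made up 2.99% of PKA tumor and 7.64% of WT tumor, and in WT tumor they held 37.4% of Krt14, 25.5% of Krt7, 21.6% of Krt17 and 14.3% of Krt5 UMIs. Without them the basal sum still differed, with a log2 ratio of -0.66.

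PKA and WT hyperplasia lay closer together. None of the 7 keratins differed by 2 or more fold, where 4.72% of 16671 genes were that much higher and 4.28% that much lower. Krt14 was 1.67-fold higher in PKA hyperplasia (0.74, 0.66 to 0.82) and Krt5 1.53-fold higher (0.61, 0.34 to 0.88). Krt19 was 1.26-fold higher, Krt7 1.15-fold lower and Krt8 within 1.01-fold. The basal sum was 477 CPM in PKA, against 328 CPM in WT hyperplasia (0.54, 0.48 to 0.60), and the luminal sum 10907 CPM in PKA, against 10166 CPM in WT hyperplasia (0.10, 0.09 to 0.11). With the same class shares the basal ratio was 0.30 and that of Krt17 turned to -0.090. Within the Basal class Krt14 kept a ratio of 0.51 (0.41 to 0.61), and within Luminal Progenitor 1 cells 0.49 (0.36 to 0.63).

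**Figure D4:**
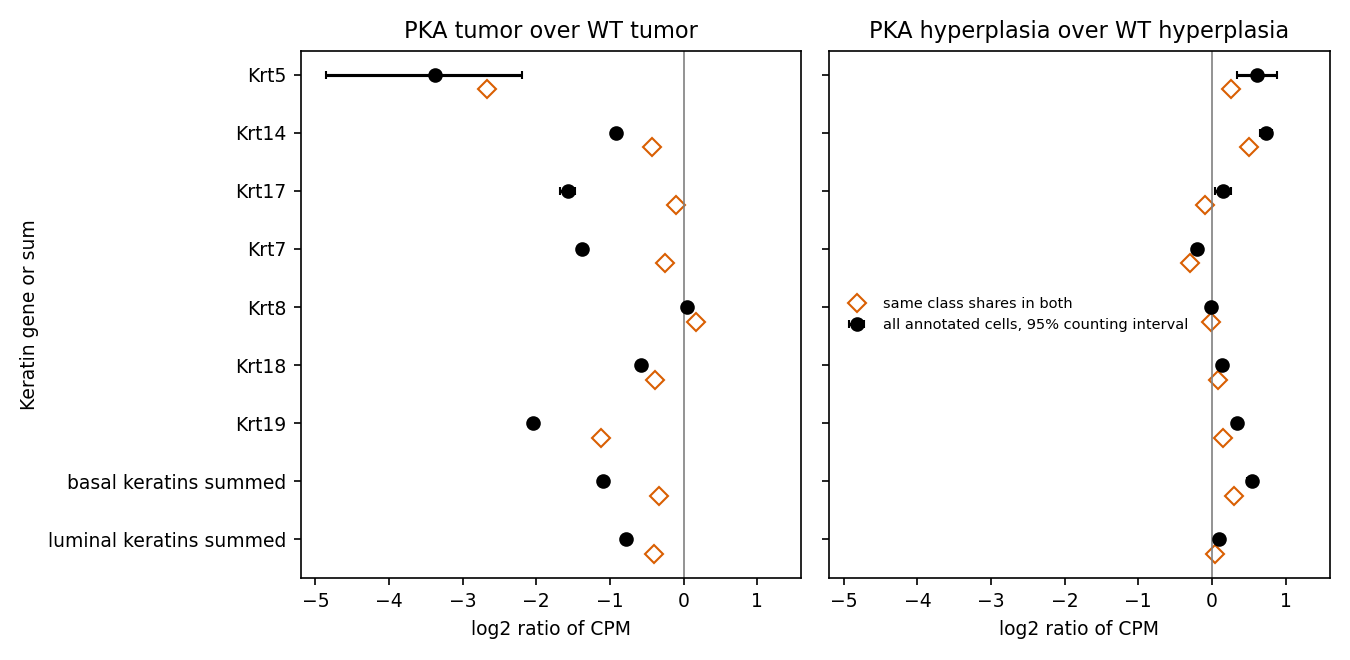
Log2 ratio of PKA over WT in tumor (left) and hyperplasia (right) for each keratin and both sums; filled points are all annotated cells with 95% counting intervals, open diamonds the same class shares in both libraries. Most tumor points lie left of 0 and move toward it with equal class shares, Krt17 to -0.10 and Krt19 to -1.13.

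Tumors and hyperplastic glands were compared to follow the keratins through tumor development. In PKA, 2 of the 7 were 2 or more fold lower in tumor (Krt17 2.31-fold, and Krt5 by a log2 ratio of -6.26, -7.72 to -5.12, from 6 UMIs in tumor), beside 10.4% of 18755 genes lower and 28.5% higher, and the other 5 were lower by 1.13 to 1.44-fold. In WT, Krt14 (2.18-fold) and Krt19 (3.91-fold) were 2 or more fold higher in tumor, beside 29.7% of 19402 genes, a similar proportion, and Krt5 was 4.84-fold lower, beside 10.6%. Krt7 reached 2.00-fold, just under the limit. The basal sum was lower in PKA tumor than in PKA hyperplasia (-0.79, -0.84 to -0.73) and higher in WT tumor than in WT hyperplasia (0.84, 0.79 to 0.90). Only Luminal Progenitor 1 and Mature Luminal cells were named at both stages. Over these 2 classes with equal shares the basal sum was higher in the tumors of both genotypes, by a log2 ratio of 0.84 in PKA and 1.61 in WT, so its direction in PKA turned when the classes named at 1 stage were left out.

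Within Luminal Progenitor 1 cells Krt14 and Krt17 were higher, and the 4 luminal keratins lower, in the tumors of both genotypes. The median gene was higher there too, by a log2 ratio of 0.38 in PKA and 0.32 in WT. In PKA, 1 of the 7 keratins, Krt17 (2.31-fold), was 2 or more fold higher in tumor, a smaller proportion than the 31.6% of 17557 genes. Krt19 was 2.83-fold lower, beside 9.74% that were 2 or more fold lower. In WT, 2 of the 7, Krt14 (3.37-fold) and Krt17 (2.70-fold), were 2 or more fold higher in tumor. Over 16605 genes this was 28.3%, a similar proportion. Krt7 was 2.70-fold lower, beside 11.8%. Krt5, unlike Krt14 and Krt17, was over 2-fold lower in PKA tumor, from 5 UMIs there. In WT its 5 UMIs over both libraries were too few to be tested.

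In Mature Luminal cells of WT tumor all 4 luminal keratins were above those of WT hyperplasia, Krt19 by 4.89-fold (2.29, 2.21 to 2.37), Krt7 by 3.16-fold, Krt8 by 3.04-fold and Krt18 by 1.71-fold; 25.9% of 13435 genes were 2 or more fold higher there. In PKA the same cells differed less, with Krt7 1.61-fold, Krt8 1.57-fold and Krt19 1.44-fold higher in tumor and Krt18 1.21-fold lower. Fibroblast markers of Mature Luminal cells reached 901 CPM in WT tumor (2 of 6 detected) with 609 CPM in WT hyperplasia (4 of 6), and 30.0 CPM in PKA tumor (3 of 6) with 120 CPM in PKA hyperplasia (3 of 6). Lum was at 0 in all 4, and Col1a2 and Col3a1 in all but WT hyperplasia. Pdgfra was at 0 too in both WT libraries, so the WT tumor sum came from Col1a1 and Dcn alone. The part of these markers was not tested.

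Cells with chains of both layers were counted after each cell of at least 2000 UMIs was thinned to 2000 UMIs. A basal and a luminal keratin were found together in 16.0% (14.6 to 17.5) of PKA tumor cells, 21.4% (20.2 to 22.6) of WT tumor cells, 14.5% (13.1 to 15.8) of PKA hyperplasia cells and 12.4% (11.2 to 13.7) of WT hyperplasia cells. The cells too shallow to enter numbered 187, 428, 1148 and 1090 in that order. Without thinning the shares were 24.3%, 28.8%, 18.2% and 15.9%. WT tumor was highest and WT hyperplasia lowest. At 4000 UMIs the 2 hyperplasia libraries changed places, with 17.3% in PKA and 20.0% in WT, so no order is read between them.

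These shares measured the basal side almost alone, since a luminal keratin was found in 99.2% of PKA tumor, 99.7% of WT tumor, 99.4% of PKA hyperplasia and 98.7% of WT hyperplasia cells. The product of the single shares came to 16.0%, 21.5%, 14.6% and 12.7% in the same order, close to the shares found. Mature Luminal cells, which should lack basal keratins, gave a background of 5.23% in PKA tumor, 4.50% in WT tumor, 2.87% in PKA hyperplasia and 4.55% in WT hyperplasia, with median depths before thinning of 8414.5, 5559, 3573.5 and 3872 UMIs. In Basal cells a luminal keratin was found in 93.6% in PKA and 74.7% in WT hyperplasia. Barcodes with immune genes were too few (7 to 13 per library) to give a background for luminal keratins.

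By class, both kinds were found together in 58.7% (45.6 to 71.0) of Lumino-Basal cells of PKA tumor and 48.2% (45.3 to 51.2) of those of WT tumor. A basal keratin was not detected at this depth in 25 of 63 Lumino-Basal cells in PKA and 566 of 1105 in WT tumor. In the Basal class the share was 79.1% (70.3 to 86.3) in PKA and 59.5% (47.9 to 70.4) in WT hyperplasia. Luminal Progenitor 1 cells gave 17.2% (15.5 to 18.9) in PKA tumor and 18.8% (17.2 to 20.5) in WT tumor, against 12.8% (11.4 to 14.3) in PKA hyperplasia and 12.0% (10.6 to 13.5) in WT hyperplasia. Each of the shares of these 3 classes lay above the Mature Luminal share of its own library, although in WT hyperplasia the intervals of Luminal Progenitor 1 and Mature Luminal cells overlapped. Luminal Progenitor 2 cells gave 8.70% (5.65 to 12.7) in PKA and 7.59% (5.34 to 10.4) in WT hyperplasia, with intervals that overlapped those of Mature Luminal cells. EMT-like cells, with 1.84% in PKA and 5.59% in WT tumor, lay near the background.

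**Figure D5:**
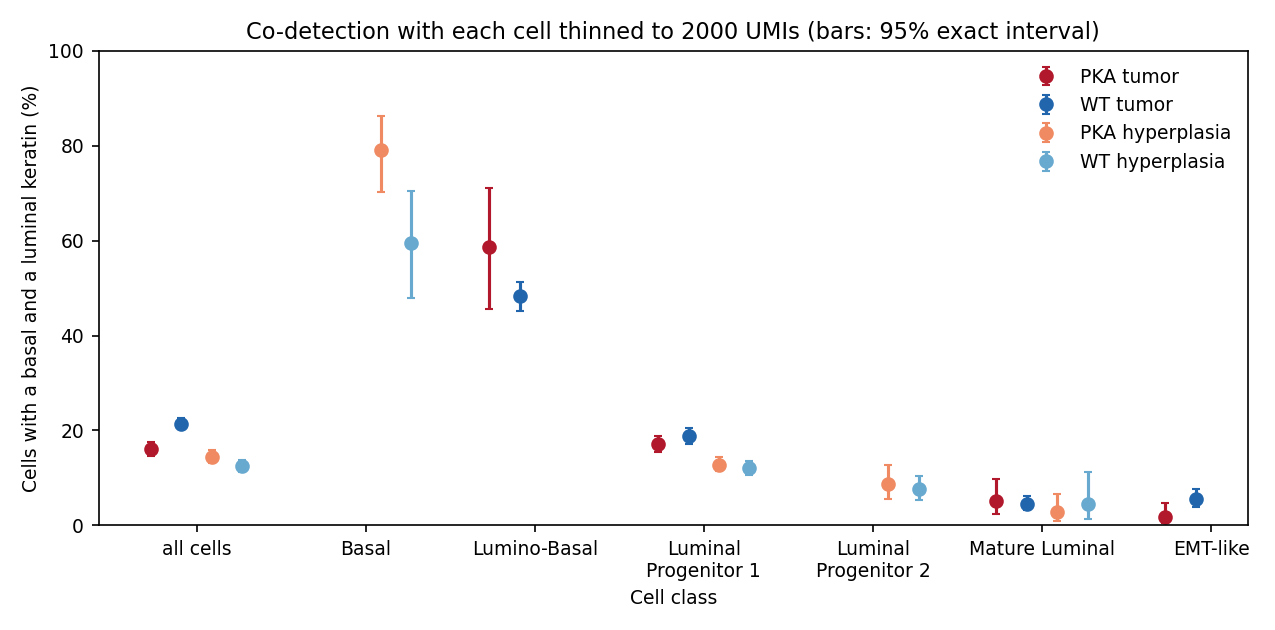
Percent of cells with a UMI of a basal and of a luminal keratin, by class and library, each cell thinned to 2000 UMIs (points, with exact 95% intervals). The Basal and Lumino-Basal classes lie between 48.2% and 79.1%, Luminal Progenitor 1 cells between 12.0% and 18.8%, Luminal Progenitor 2 cells at 8.70% and 7.59%, and Mature Luminal and EMT-like cells below 6%.

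Krt14 and Krt17 were found in the same cells more often than the product of their single shares in the Lumino-Basal and Luminal Progenitor 1 cells of WT tumor. The same held for Luminal Progenitor 1 cells of WT hyperplasia and, without thinning, for Basal cells. In Lumino-Basal cells of WT tumor 15.3% held both, against a product of 10.1%, and in Luminal Progenitor 1 cells of WT tumor 2.28% against 1.0%. In PKA tumor the 63 Lumino-Basal cells gave 15.9% against 13.9% and the Luminal Progenitor 1 cells 0.75% against 0.43%. Without thinning the PKA Lumino-Basal cells gave 30.3% (19.6 to 42.9), an interval that holds the product of 24.6%. The Luminal Progenitor 1 cells of PKA tumor gave 2.27% (1.69 to 2.99) without thinning, against 1.25%. Thinned Luminal Progenitor 1 cells gave 0.81% (0.47 to 1.30) against 0.38% in WT hyperplasia. In PKA hyperplasia they gave 0.33% (0.13 to 0.68) against 0.31%. Without thinning, Basal cells gave 63.6% (57.0 to 69.8) against 55.5% in PKA, and 52.0% (44.8 to 59.1) against 44.2% in WT hyperplasia. The 2 genes share a part of their 3' ends, as given above. Krt14 with Krt5, the pair of the basal layer, was found in 38.2% of PKA and 30.4% of WT Basal cells but in 0 of 2451 PKA tumor cells and 11 of 4753 WT tumor cells at 2000 UMIs, of which 10 were Lumino-Basal cells. A count of 0 allows up to 0.122% of cells with UMIs of both at this depth. Without thinning it was found in 3 of 2638 PKA tumor cells (0.114%, 0.023 to 0.332) and 12 of 5181 WT tumor cells (0.232%, 0.120 to 0.404). Luminal Progenitor 1 cells of hyperplasia also rarely held this pair at 2000 UMIs, with 1 of 2110 in PKA and 0 of 2090 in WT.

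Luminal Progenitor 1 cells with a basal keratin had few other basal genes, in tumors and in hyperplasia. The contractile and transcription factor genes of the basal list (Acta2, Myh11, Mylk, Cnn1, Trp63 and 5 more) summed to 48.1 CPM in Luminal Progenitor 1 cells of PKA tumor with a basal keratin and 41.1 CPM in those without, and to 220 and 83.8 CPM in WT tumor. In Luminal Progenitor 1 cells of hyperplasia they made 196 CPM with and 157 CPM without a basal keratin in PKA, and 175 and 138 CPM in WT. In Basal cells of hyperplasia with a basal keratin they made 15043 CPM in PKA, against 12561 CPM in WT. Luminal keratins were no lower in Luminal Progenitor 1 cells with a basal keratin. They stood at 7283 CPM with and 6837 CPM without one in PKA tumor, and at 10869 and 8070 CPM in WT tumor. In Lumino-Basal cells of WT tumor they stood at 13029 CPM with and 7941 CPM without a basal keratin, Krt7 at 2574 and 1375 CPM, but in the fewer Lumino-Basal cells of PKA tumor at 10250 CPM with and 11460 CPM without one. The median depth before thinning of Luminal Progenitor 1 cells with and without a basal keratin was 6027 and 6288 UMIs in PKA tumor and 4373.5 and 4274 UMIs in WT tumor.

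Keratins outside the 7 were lower in PKA tumor than in WT tumor. Of 43 such genes 25 had at least 10 UMIs. Of these 19 were 2 or more fold lower and 0 higher, beside 7.92% lower and 9.52% higher over all genes. Their median log2 ratio was -1.78 against -0.02 over all genes. The 43 summed to 142 CPM in PKA, against 731 CPM in WT tumor. In WT tumor they split by class. Krt16, the wound-induced relative of Krt17, had 2.45 CPM in PKA, against 91.2 CPM in WT tumor. Krt23 had 43.2 CPM in PKA, against 182 CPM in WT tumor, and Krt79, a keratin of hair follicles and skin gland ducts, 5.37 CPM in PKA, against 146 CPM in WT tumor. All 3 were highest in the Lumino-Basal class of WT tumor (312, 395 and 467 CPM). Krt15, a basal chain of stratified epithelia, had 7.10 CPM in PKA, against 118 CPM in WT tumor, and Krt4, a chain of mucosal epithelia, 3.58 CPM in PKA, against 56.4 CPM in WT tumor. Both were highest in the Mature Luminal class of WT tumor (504 and 273 CPM). Krt10, the suprabasal chain of skin, differed little, with 27.7 CPM in PKA, against 27.6 CPM in WT tumor.

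Against hyperplasia, 17 of 24 such keratins were 2 or more fold higher in WT tumor and 1 lower, beside 29.7% and 10.6% of all genes. Their median was 3.19 against 0.37 over all genes. In PKA tumor 5 of 18 were higher, beside 28.5% of all genes, a similar proportion. Another 5 were lower, beside 10.4% (median -0.12 against 0.30). Between the hyperplasia libraries 4 of 16 were higher in PKA and 0 lower, beside 4.72% higher and 4.28% lower over all genes, with a median of 0.56 against 0.01 over all genes. Among the 4 was Krt6a, another wound-induced chain, with 11.4 CPM in PKA, against 2.5 CPM in WT, mostly in Mature Luminal cells (128 CPM in PKA, against 65.1 CPM in WT).

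Many genes that anchor keratin filaments were lower in tumors of both genotypes. Of the desmosome and hemidesmosome genes 8 of 15 were 2 or more fold lower in PKA tumor than in PKA hyperplasia, with 0 higher. Over all genes 10.4% were that much lower and 28.5% higher. In WT tumor 8 of 17 were lower than in WT hyperplasia and 3 higher, beside 10.6% lower and 29.7% higher over all genes. Their median log2 ratios were -1.02 in PKA, against 0.30 over all genes, and -0.78 in WT, against 0.37 over all genes. Plec, the linker plectin, had 61.9 CPM in PKA tumor and 357 CPM in PKA hyperplasia, and 62.6 CPM in WT tumor and 288 CPM in WT hyperplasia. Between the tumors 4 of 17 were 2 or more fold lower in PKA and 1 higher, beside 7.92% and 9.52% over all genes. Dst, the hemidesmosomal linker dystonin, was the higher one (141 CPM in PKA, against 66.0 CPM in WT). Dsp, the desmosomal linker desmoplakin, was among the lower (15.0 CPM in PKA, against 41.7 CPM in WT). The list summed to 882 CPM in PKA, against 879 CPM in WT tumor.

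Of 10 basal genes 9 were 2 or more fold lower in PKA tumor than in PKA hyperplasia (10.4% of all genes tested), and 8 in WT tumor than in WT hyperplasia (10.6% of all genes tested). Acta2, smooth muscle actin, stood at 11.0 CPM in PKA tumor with 346 CPM in PKA hyperplasia, and 13.4 CPM in WT tumor with 180 CPM in WT hyperplasia. Krt5 was low in tumors together with these genes, whereas Krt14 and Krt17 kept a level in Luminal Progenitor 1 and Lumino-Basal cells. Of 8 luminal genes none differed by 2 or more fold between the tumors, and Epcam, the epithelial adhesion molecule, had 3081 CPM in PKA, against 2797 CPM in WT tumor. The filament gene Vim, vimentin, had 33.6 CPM in PKA, against 14.8 CPM in WT tumor.

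Patterns over the 16 sums of a library and class were compared by Pearson correlation of log2(CPM + 10), as a description, since sums share libraries and class markers. Krt14 and Krt17 went together (r = 0.94), as did Krt18 with Krt7 (0.90), Krt18 with Krt19 (0.87) and Krt8 with Krt18 (0.80). The 5 genes most like Krt14 were Tlr2 (0.95), Fscn1 (0.94), Col12a1 (0.93), Synpo (0.93) and Igf1r (0.93), and those most like Krt8 were Cldn4 (0.86), Cystm1 (0.85), Cyfip1 (0.84), Cdc42ep1 (0.81) and Grpel2 (0.81). Fscn1, the actin bundler fascin, had 19.5 CPM in PKA, against 41.8 CPM in WT Lumino-Basal cells, and 81.9 CPM in PKA, against 87.0 CPM in WT Basal cells, with at most 8.58 CPM elsewhere.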

How the data were processed

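The deposited tables give raw UMI counts for each gene in each barcode, and the authors deposited per-cell tables with numbers of UMIs and genes, the fraction of mitochondrial UMIs and a class. Per the submitters' processing notes, the tools were featureCounts of Subread 1.6.0, STAR 2.5.3a and Cell Ranger on GRCm38/mm10; whether both stages were counted alike is not known here. Per the series design, classes were assigned with Monocle2. Cells were FACS sorted, per the labels' protocols.

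UMIs of annotated cells were summed by library and class and scaled to CPM; 296 to 1371 barcodes per library without a class were left out, and no doublets were removed. Ratios carry exact conditional binomial 95% intervals and shares Clopper-Pearson intervals, which cover counting error only; a count of 0 allows 3. Genes whose 2 libraries summed to 10 or more UMIs were tested against a fold of 2, and classes of under 50 cells gave no ratio. For co-detection, cells were thinned without replacement to 2000 UMIs. List medians add 0.5 UMIs to each count. Equal class shares weight class CPM by the mean of both libraries' shares of UMIs.

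The keratins, the gene lists and the markers were chosen with earlier results of these data known. Besides the 7, listed genes of at least 10 CPM in any library could be named, and for Krt14 and Krt8 the 5 genes most alike among those of at least 50 CPM in any sum. Steps were tested on simulated data. R 4.3.3 with edgeR 4.0.16 (TMM factors only), matplotlib 3.10.9, pandas 2.3.3, SciPy 1.17.1, NumPy 2.4.6 and Python 3.11.15 were used.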

Additional observations from a re-analysis of the deposited data

Results flagged for a closer look

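For 5 keratins and both sums the PKA over WT ratio pointed one way in tumor and the other way in hyperplasia. The log2 ratio in tumor minus that in hyperplasia was -3.99 for Krt5, -1.65 for Krt14, -1.73 for Krt17, -0.72 for Krt18 and -2.39 for Krt19. It was -1.63 for the basal sum and -0.88 for the luminal sum. With 1 library per group these differences were not tested. Once class shares were set equal, Krt17 lay below 0 at both stages (-0.10 in tumor and -0.090 in hyperplasia).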

How the results depend on the processing

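No paired analysis was possible because each group has 1 library. Of the single keratin ratios, 82 alternatives lay within the counting interval, 74 moved and 12 changed sign. The sign changes came from the weight of the classes. With classes weighted equally they were Krt7 in PKA against WT hyperplasia (0.033), Krt17 in PKA against WT tumor (0.38), Krt14 (0.79), Krt17 (1.24), Krt7 (0.35), Krt8 (0.048) and Krt19 (0.29) in PKA tumor against hyperplasia, and Krt8 in WT tumor against hyperplasia (0.34). With the same class shares, an alternative chosen after seeing the data, they were Krt17 in PKA against WT hyperplasia (-0.090), Krt14 (0.80) and Krt17 (1.21) in PKA tumor against hyperplasia and Krt7 in WT tumor against hyperplasia (-0.092). Between stages both settings leave out the classes named at 1 stage.

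For the basal sum, PKA against WT tumor became -0.15 with classes weighted equally, -0.33 with the same shares and -0.66 without squamous cells, and PKA against WT hyperplasia 0.37 and 0.30 with the first 2 of these. PKA tumor against hyperplasia became 0.85 and 0.84 with the same 2 settings, a change of sign, and -0.98 with TMM factors. WT tumor against hyperplasia became 1.49 and 1.61, 0.64 with TMM, 0.77 without mitochondrial, ribosomal protein and milk genes in the total and 0.39 without squamous cells. TMM factors shifted all genes by -0.19 in PKA and -0.20 in WT tumor against hyperplasia.

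For the luminal sum, PKA against WT tumor became -0.52 with classes weighted equally, -0.40 with the same shares, -0.77 with the reduced total and -0.76 with all barcodes, and PKA against WT hyperplasia 0.25, 0.048 and, with TMM, 0.087. PKA tumor against hyperplasia became -0.10 with classes weighted equally, -0.51 with the same shares, -0.60 with TMM, -0.46 with the reduced total and -0.40 with all barcodes. WT tumor against hyperplasia became 0.88, 0.15, 0.27 and 0.40 under the first 4 of these.

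Co-detection moved with depth and rule, in the order PKA tumor, WT tumor, PKA hyperplasia and WT hyperplasia: 11.0%, 16.3%, 10.7% and 9.05% at 1000 UMIs, 22.1%, 29.3%, 17.3% and 20.0% at 4000 UMIs, 8.73%, 13.4%, 6.25% and 5.52% with at least 2 UMIs on each side, and 12.7%, 12.9%, 9.70% and 7.43% for Krt14 with Krt8 alone. Depth limits the Krt5 ratios, with 6 UMIs in PKA and 91 in WT tumor, and the spread between replicate libraries was not measured.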

Other observations

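Barcodes that the authors left without a class, 296 in PKA tumor, 619 in WT tumor, 1040 in PKA hyperplasia and 1371 in WT hyperplasia, had median depths of 411 to 786.5 UMIs. Krt18 stood in them at 4602, 4718, 5070 and 4702 CPM in that order and Krt14 at 63.8, 131, 176 and 136 CPM.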
